A study of Mus musculus with 9 samples.

Results

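The 8 genes examined mark interneurons born in the medial ganglionic eminence (MGE). They are *Lhx6*, *Nkx2-1*, *Sst*, *Npy*, *Sox6*, *Satb1*, *Maf* and *Erbb4*, and were measured by bulk RNA sequencing of the newborn (P0) mouse cortex. The genes, and the gene lists used below, were chosen by name with earlier results of these data known. Shares over all genes are therefore given beside them for scale and not as a test. All 8 were among the 24624 genes of the table, and all 8 passed the filter on low values (a mean of at least 10 over the 9 libraries) that left 16197 genes to test. Each library came from both cortical hemispheres of 1 mouse. There were 3 wild type libraries (*Fezf2*+/+, replicates bc201 to bc203), 4 null libraries (*Fezf2*-/-, replicates bc204 to bc207) and 2 libraries of null mice that also carried the *Fezf2-EnR* transgene (*Fezf2*-/-; *Fezf2-EnR*, replicates bc208 and bc209, called the *Fezf2-EnR* libraries from here on). The null allele has a gene for human placental alkaline phosphatase knocked into the *Fezf2* locus, and both the null and the *Fezf2-EnR* mice carried 2 copies of it. The transgene is a bacterial artificial chromosome in which *Fezf2* sequences drive the DNA-binding domain of FEZF2 joined to the repressor domain of engrailed. The labels place the mice in 3 litters. Litter m1 held 2 wild type (bc201, bc202) and 2 null (bc205, bc206) libraries, litter m2 held 1 wild type (bc203) and 1 *Fezf2-EnR* library (bc209), and litter m3 held 2 null (bc204, bc207) and 1 *Fezf2-EnR* library (bc208).

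Interneurons are the inhibitory, GABA-releasing cells of the cortex, and most of them do not arise in the cortex itself. In the MGE of the ventral forebrain, progenitors express the homeodomain factor NKX2-1, which switches on the LIM homeodomain factor LHX6 as the cells become postmitotic. The young neurons then migrate tangentially into the cortex, mostly with NKX2-1 shut off again, and SOX6, SATB1 and MAF act in their settling and maturation into somatostatin and parvalbumin classes. Somatostatin (*Sst*) and neuropeptide Y (*Npy*) are peptides that subsets of these cells release, and ERBB4 is the receptor through which neuregulins act on migrating and maturing interneurons. FEZF2 itself is a zinc-finger factor of deep-layer glutamatergic neurons, a separate lineage. Because the libraries are bulk tissue, fewer cells of a type and less RNA per cell cannot be told apart in any value given here.

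Values are read counts divided by a size factor of each library, called normalised read counts. Whole reads could be recovered from them, with totals of 18716575 to 25127623 per library. *Fezf2* read 979 to 1232 in wild type, 193 to 242 in null and 907 and 1001 in the *Fezf2-EnR* libraries, where transgene and endogenous gene are not separated. Sex-linked transcripts divided the groups unevenly. *Xist*, made from the inactive X chromosome, was at 10771 in wild type bc201 and at 12203 and 7895 in the 2 *Fezf2-EnR* libraries, and at 0 to 58.9 in all others, so that the null and *Fezf2-EnR* groups also differed in this marker of sex, and genotype and sex cannot be told apart between them.

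Libraries bc204 (null) and bc208 (*Fezf2-EnR*), both of litter m3, stood apart in markers of the ventral forebrain. The summed normalised read count of 10 genes of striatal projection neurons was 4362 in bc204 and 3255 in bc208, against 1170 to 1980 in the other 7 libraries. These libraries held the highest pair of values for 8 of the 10 genes, among them *Drd2* and *Penk*, but not for *Drd1* and *Ppp1r1b*. A list of 7 genes of basal forebrain cholinergic neurons, which also come from NKX2-1 progenitors, summed to 254 in bc204 and 88.6 in bc208 and to 15.3 to 45.8 in the others. The pair was highest for 6 of the 7 genes, but not for *Slc18a3* (19.1 in bc204 and 1.99 in bc208, against 1.09 to 5.27 elsewhere). *Isl1*, which is on both lists, made up 138.6 of the sum in bc204 and 38.8 in bc208, so the 2 sums are not separate. *Chat*, which defines those neurons, was at 0 in every library except these (2.01 in bc204 and 1 in bc208, where 1 read counts as 1.004 and 0.996). *Lhx8* read 34.2 and 11.95 in them against 0 to 3.28 elsewhere. The part of this signal in the results was not tested.

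The members covered a wide range of expression levels. Per kilobase of merged exons, the mean normalised read count in wild type was 3855 ± 80.4 (SD, n = 3) for *Npy*, 886 ± 27.7 for *Sst* and 431 ± 34.3 for *Lhx6*. *Satb1*, *Erbb4* and *Maf* followed with 299 ± 25.1, 234 ± 11.2 and 200.45 ± 10.8 per kilobase, then *Sox6* with 85.4 ± 3.78, and *Nkx2-1* was lowest with 5.74 ± 1.02. No neighbours in this order overlapped among the 3 wild type libraries. The order depended on the length used, since with the longest transcript in place of merged exons *Satb1* (912 per kilobase) came before *Sst* and *Maf* (259.7) before *Erbb4* (240.4). In the GENCODE M21 annotation of GRCm38, the assembly also called mm10, the 8 genes lie on 8 different chromosomes, so none are neighbours. Exons of *Lhx6*, *Satb1* and *Maf* overlap those of predicted genes there, so reads of these 3 genes may be shared with them. For *Lhx6* and *Satb1* a predicted gene lies on the same strand. For *Maf* it lies on the opposite strand, and the use of strand in counting is not given in the sources used here.

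In *Fezf2*-/- against *Fezf2*+/+, none of the 8 members passed the test across all genes (limma, Benjamini-Hochberg adjusted p under 0.05), which called 0.858% of the genes tested. At an unadjusted p under 0.05, 4 members had higher values in the null libraries (*Sst*, *Npy*, *Sox6* and *Erbb4*) and 0 had lower ones, where 6.61% of all genes were higher at that level. In the same 4 genes every null library was above every wild type library, which was so for 6.53% of all genes. The log2 fold change was above 0 for all 8 members, with a median of 0.32 beside a median of 0.00019 over all genes tested. Of the count tests on recovered reads, edgeR called 0 of the 8 (0.877% of all genes) and DESeq2 called 1, *Sox6* (1.95% of all genes).

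**Figure D1:**
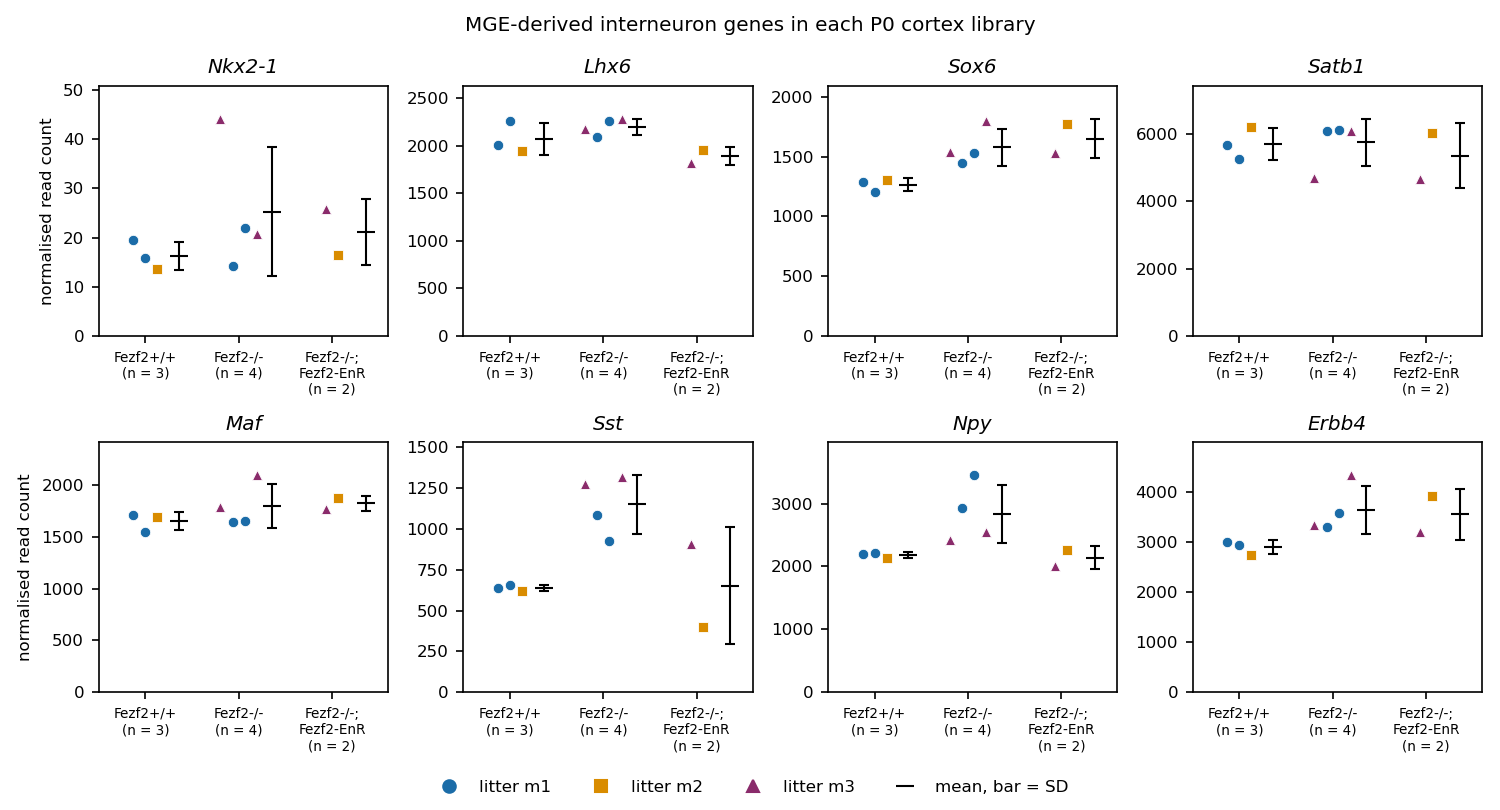
Normalised read count (y axis, linear from 0) of each member gene in each library (points, by litter) for the 3 genotypes (x axis), with the group mean and SD in black. *Sst*, *Npy*, *Sox6* and *Erbb4* have all 4 null libraries above the 3 wild type libraries, and *Nkx2-1* has 1 high null library (bc204) at 44.2.

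Among the transcription factors, *Nkx2-1* (chr12:56531958-56536908, minus strand) was the least abundant member, with 13 to 44 reads per library. Its normalised read counts were 19.4, 15.8 and 13.7 in wild type, 44.2, 14.2, 21.9 and 20.8 in null, and 25.9 and 16.4 in the *Fezf2-EnR* libraries. The groups overlapped, and the highest and second highest values belonged to bc204 and bc208, the libraries with raised striatal and cholinergic markers. The log2 fold change in null against wild type was 0.50 (standard error, SE, 0.35, limma adjusted p = 0.67), and it was 0.19 without bc204.

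*Lhx6* (chr2:36081953-36105408, minus strand), the factor that most MGE-derived interneurons keep after they leave the eminence, varied little. It read 2008, 2259 and 1948 in wild type, 2173, 2095, 2257 and 2281 in null, and 1823 and 1958 in the *Fezf2-EnR* libraries. Null and wild type libraries overlapped, and the log2 fold change was 0.09 (SE 0.07, 95% interval -0.06 to 0.24, limma adjusted p = 0.69).

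*Sox6* (chr7:115470872-116038796, minus strand), which acts downstream of LHX6 in the positioning of these cells and is also expressed in cortical progenitors and oligodendrocyte precursors, had higher values in every mutant library than in wild type. It read 1293, 1201 and 1304 in wild type, 1540, 1444, 1530 and 1800 in null, and 1534 and 1770 in the *Fezf2-EnR* libraries. The wild type range of 1201 to 1304 thus lay below all 6 mutant libraries. The share of all genes with this pattern was not computed. The log2 fold change in null against wild type was 0.31 (SE 0.08, limma p = 0.0035 before and 0.17 after adjustment), and the exact two-sided permutation test gave p = 0.029, the smallest that 3 libraries against 4 allow. DESeq2 on recovered reads gave 0.32 with an adjusted p of 0.037.

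*Satb1* (chr17:51736187-51833290, minus strand), a chromatin-organising factor that is also abundant in cortical glutamatergic neurons, read 5652, 5236 and 6191 in wild type, 4684, 6092, 6119 and 6070 in null, and 4657 and 6029 in the *Fezf2-EnR* libraries. Its 2 lowest values were again those of bc204 and bc208. The log2 fold change in null against wild type was 0.01 (SE 0.11, limma adjusted p = 0.99), and it lay between -0.05 and 0.10 when single libraries were left out. *Maf* (chr8:115682942-115707794, minus strand), a basic leucine zipper factor of maturing somatostatin interneurons, read 1713, 1550 and 1694 in wild type, 1792, 1639, 1657 and 2098 in null, and 1770 and 1874 in the *Fezf2-EnR* libraries. Null and wild type overlapped, and the log2 fold change was 0.12 (SE 0.09, limma adjusted p = 0.69).

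**Figure D2:**
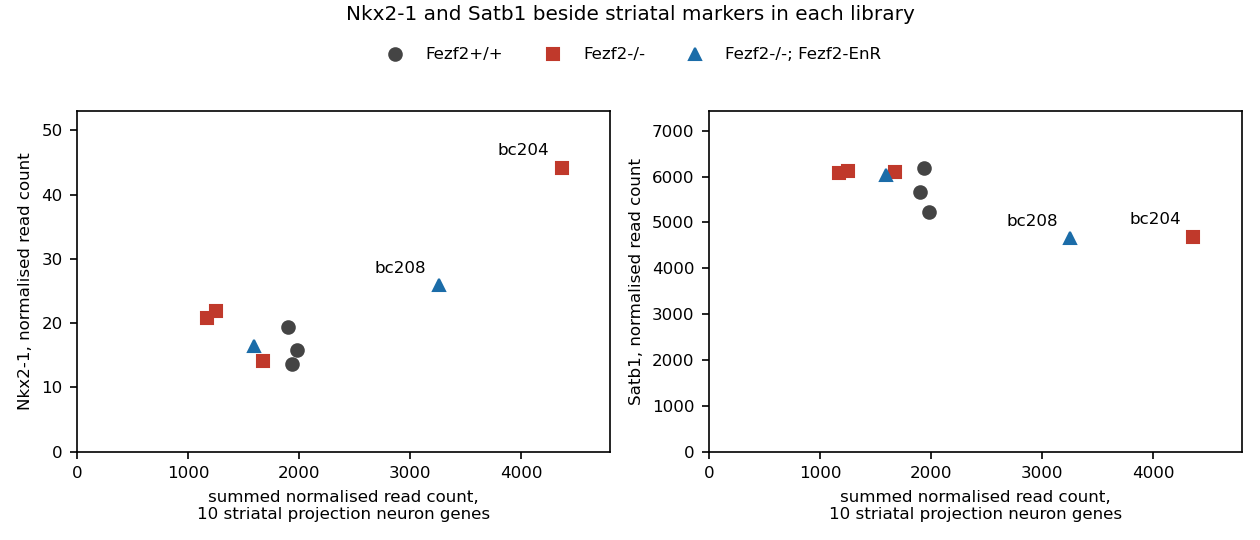
Normalised read count of *Nkx2-1* (left) and *Satb1* (right) on the y axis against the summed normalised read count of 10 striatal projection neuron genes on the x axis, 1 point per library, by genotype. Libraries bc204 and bc208 lie to the right of the other 7, with the 2 highest *Nkx2-1* and the 2 lowest *Satb1* values.

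Of the neuropeptides, *Sst* had the largest log2 fold change of the 8 members. *Sst* (chr16:23889573-23890958, minus strand), an inhibitory peptide that defines the somatostatin class, read 639, 659 and 619 in wild type, 1274, 1086, 928 and 1317 in null, and 906 and 399 in the *Fezf2-EnR* libraries. All null libraries were above all wild type libraries, whereas the 2 *Fezf2-EnR* libraries lay on either side of wild type. The mean was 639 ± 19.98 (SD, n = 3) in wild type and 1151.5 ± 180 (SD, n = 4) in null. The difference between the mean log2 values corresponds to a fold change of 1.79 (log2 fold change 0.84, SE 0.22, limma p = 0.0036 before and 0.17 after adjustment, exact two-sided permutation p = 0.029). The call depended on the spread that the *Fezf2-EnR* libraries added to the shared fit. *Sst* passed with only the wild type and null libraries in the fit (limma adjusted p = 0.0088), which called 1.36% of all genes, and without either *Fezf2-EnR* library (0.0090 without bc208, 0.0088 without bc209). Within litter m1 alone, which holds 2 libraries of each genotype, the log2 fold change of *Sst* was 0.63 (limma adjusted p = 0.010), in a fit that called 1.44% of genes. With litter as a block it was 0.46 (adjusted p = 0.18).

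*Npy* (chr6:49822710-49829507, plus strand), a peptide of a partly overlapping set of interneurons, read 2193, 2221 and 2132 in wild type, 2413, 2922, 3456 and 2552 in null, and 2014 and 2266 in the *Fezf2-EnR* libraries. The null libraries were again all above wild type, and the *Fezf2-EnR* libraries overlapped it. The mean was 2182 ± 45.5 (SD, n = 3) in wild type and 2836 ± 465.8 (SD, n = 4) in null (log2 fold change 0.36, SE 0.11, limma p = 0.0067 before and 0.23 after adjustment, exact two-sided permutation p = 0.057). *Npy* passed the test with litter as a block (0.50, limma adjusted p = 0.015), which called 0.772% of all genes, and within litter m1 alone (0.53, adjusted p = 0.017). The 2 peptides did not follow the litters in the same way within the null group. The null libraries of litter m3 had the higher *Sst* (1274 and 1317 against 1086 and 928 in m1) and the lower *Npy* (2413 and 2552 against 2922 and 3456), a log2 difference of 0.37 for *Sst* and -0.36 for *Npy*, not tested with 2 libraries on each side.

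Sequences upstream of the RefSeq starts of these peptide genes are shown. Both genes read higher in every null library than in any wild type library, as did *Sox6* and *Erbb4*, whose sequences are not shown. RefSeq windows upstream of transcript starts in GRCm38.p6 were matched for 7 members, 18 windows in all. The *Sst* window holds the cAMP response element, the palindrome TGACGTCA to which CREB binds. It is given in capitals in the first line at 48 bases before the RefSeq start (chr16:23890867-23890896, minus strand). GENCODE M21 places the *Sst* start further out, at chr16:23890958, so in that annotation the printed *Sst* bases lie inside the gene. The *Npy* stretch (chr6:49822590-49822709, plus strand) ends at the base before its start and holds none of the motifs searched, so it is in lower case throughout.
Sst: tggcTGACGTCAgagagagagtttaaaaag
Npy: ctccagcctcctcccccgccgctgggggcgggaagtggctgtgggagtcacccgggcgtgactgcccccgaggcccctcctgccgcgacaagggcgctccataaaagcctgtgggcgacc
In windows of 250 bases, searched on both strands, TGACGTCA occurred in 1 of the 18 member windows (*Sst*) and in 1.55% of all 32851 RefSeq windows. TAATTA, a core that LIM homeodomain factors bind, occurred in 0 member windows and 4.84% of all. CAAGTG, a core bound by NKX2-1, occurred in 2 member windows, of *Satb1* and *Sox6*, and in 11.6% of all. A match is a match of letters only, and no binding was measured.

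*Erbb4* (chr1:68032186-69108059, minus strand), the neuregulin receptor, read 3008, 2933 and 2740 in wild type, 3334, 3299, 3583 and 4339 in null, and 3193 and 3908 in the *Fezf2-EnR* libraries. No mutant library of either kind overlapped wild type, a pattern whose share over all genes was not computed, and bc207 was the highest. The log2 fold change in null against wild type was 0.32 (SE 0.10, limma p = 0.0093 before and 0.26 after adjustment, exact two-sided permutation p = 0.029).

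**Figure D3:**
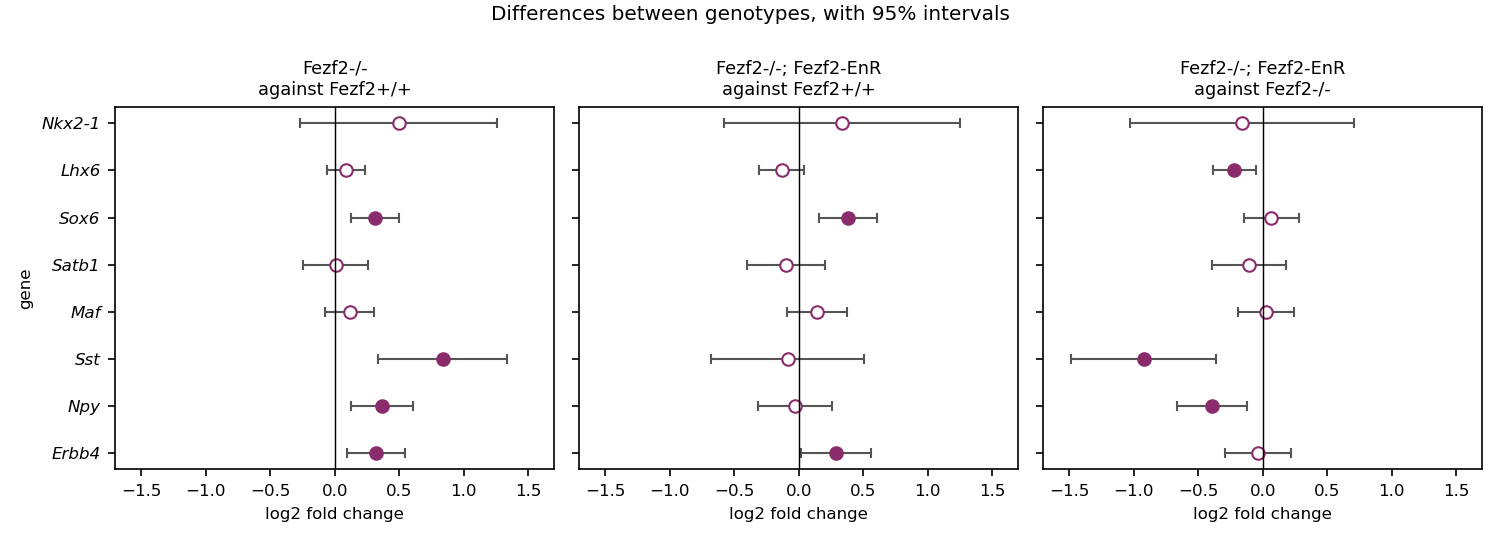
Log2 fold change (x axis) of each member (y axis) in the 3 comparisons, which share libraries, with 95% intervals from limma. Filled points have an unadjusted p under 0.05, and no point passed after adjustment over all genes. *Sst* lies at 0.84 in null against wild type and at -0.92 in *Fezf2-EnR* against null.

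The *Fezf2-EnR* libraries ask what the repressor form of FEZF2 does in a null cortex. Their 2 comparisons share these libraries, and share the null or wild type libraries with the comparison above, so the values are set side by side only. In *Fezf2*-/-; *Fezf2-EnR* against *Fezf2*-/-, limma called 0 of 8 members (0.766% of all genes), as did edgeR (0.704%). DESeq2 also called 0, beside 3.56% of the 12737 genes to which it gave an adjusted p. It gave *Nkx2-1* no adjusted p in either *Fezf2-EnR* comparison. The DESeq2 shares in these comparisons are therefore over fewer genes than those of limma and edgeR. At an unadjusted p under 0.05, 3 members were lower, *Sst*, *Npy* and *Lhx6*, where 9.06% of all genes were lower at that level. In these 3 genes both *Fezf2-EnR* libraries were below all 4 null libraries, which was so for 12.6% of all genes.

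The log2 fold change of *Sst* against null was -0.92 (SE 0.25, limma p = 0.0042 before and 0.14 after adjustment, exact two-sided permutation p = 0.067, the smallest that 2 libraries against 4 allow). It rested on bc209, whose *Sst* of 399 was the lowest of the 9 libraries. Without bc208 the value was -1.51 (limma adjusted p = 0.0021), and without bc209 it was -0.33 (adjusted p = 0.76). *Npy* was at -0.39 (SE 0.12, limma adjusted p = 0.17) and *Lhx6* at -0.22 (SE 0.08, limma adjusted p = 0.20). *Sox6* (0.07) and *Erbb4* (-0.03), which were also above wild type in null cortex, had intervals that spanned 0 (-0.14 to 0.28 and -0.29 to 0.22), and their *Fezf2-EnR* and null libraries overlapped.

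In *Fezf2*-/-; *Fezf2-EnR* against *Fezf2*+/+, limma called 0 of 8 members (0.117% of all genes) and edgeR 0 (0.0926%). DESeq2 called 1, *Sox6* (log2 fold change 0.38, adjusted p = 0.022), beside 5.58% of the 11481 genes to which it gave an adjusted p. At an unadjusted p under 0.05, *Sox6* and *Erbb4* were higher, as were 10.5% of all genes. In these genes and in *Maf* (0.14, limma adjusted p = 0.48) both *Fezf2-EnR* libraries were above all wild type libraries. The share of all genes for which this held was not computed. *Sox6* was at 0.38 (SE 0.10, limma adjusted p = 0.13) and *Erbb4* at 0.29 (SE 0.12, limma adjusted p = 0.23), with an exact two-sided permutation p of 0.1 for each, the smallest that 2 libraries against 3 allow. *Sst* was at -0.09 (SE 0.27, limma adjusted p = 0.89), a mean of 2 libraries on opposite sides, since it was -0.68 without bc208 and 0.50 without bc209. *Npy* was at -0.03 (95% interval -0.32 to 0.26). Within litters, the 1 *Fezf2-EnR* library of m3 had less *Sst* than the 2 null libraries beside it (log2 difference -0.52), and that of m2 had less than the 1 wild type library beside it (-0.63), each without a replicate.

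The other members except *Nkx2-1* were set against *Lhx6* in the same library. For RNA made in *Lhx6*-expressing cells, this removes differences that all of those cells would share. The *Sst* to *Lhx6* ratio of normalised read counts was 0.318, 0.292 and 0.318 in wild type, 0.586, 0.518, 0.411 and 0.578 in null, and 0.497 and 0.204 in the *Fezf2-EnR* libraries. All null ratios were above all wild type ratios, a log2 difference of 0.75, with an exact two-sided permutation p of 0.057 (0.29 after Benjamini-Hochberg adjustment over the 18 ratio comparisons made). The *Npy* ratio was 0.98 to 1.09 in wild type and 1.11 to 1.53 in null (log2 difference 0.27, exact p = 0.14). The *Sox6* ratio was 0.532 to 0.669 in wild type, 0.678 to 0.789 in null and 0.842 and 0.904 in the *Fezf2-EnR* libraries, so the 3 groups did not overlap (exact p = 0.029 in null against wild type and 0.26 adjusted). The *Erbb4* ratio was likewise higher in null (1.53 to 1.90) than in wild type (1.30 to 1.498), with an exact p of 0.029 (0.26 adjusted). The ratios of *Maf* and *Satb1* overlapped between null and wild type, with log2 differences of 0.025 (exact p = 0.86) and -0.083 (exact p = 0.63). *Sox6*, *Erbb4*, *Satb1* and *Maf* are also made by cells other than MGE-derived interneurons, so their ratio is not a level per interneuron.

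**Figure D4:**
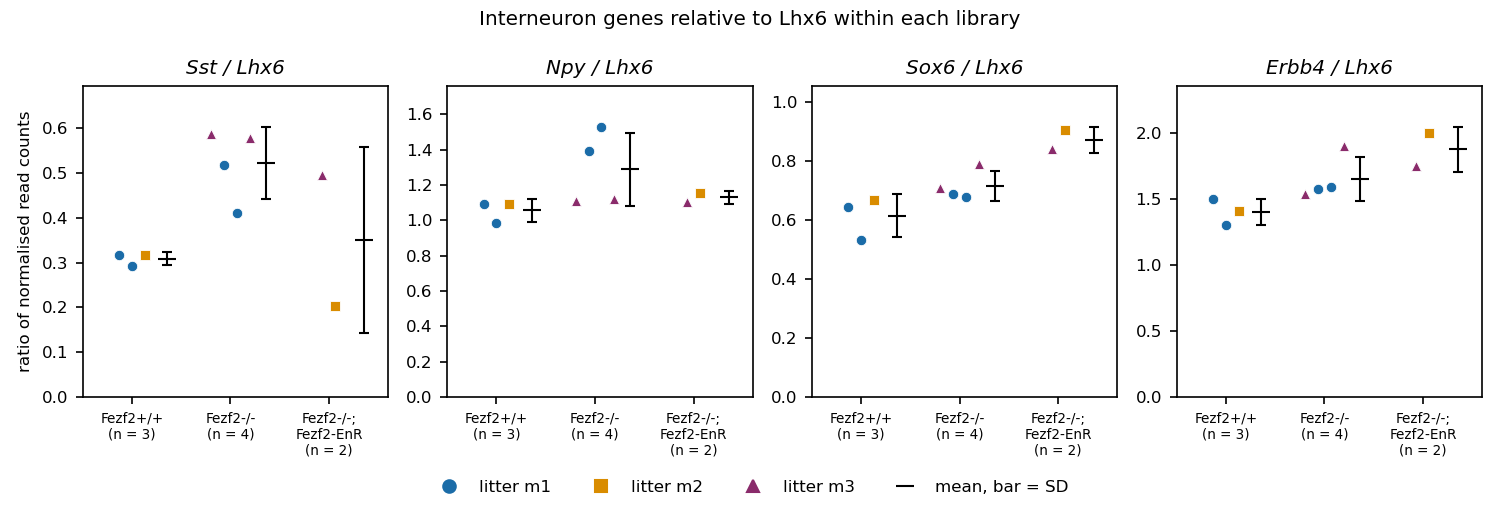
Ratio of the normalised read counts of *Sst*, *Npy*, *Sox6* and *Erbb4* to that of *Lhx6* (y axis, linear from 0) in each library (points, by litter), by genotype (x axis), with group mean and SD. The *Sst* ratio is 0.292 to 0.318 in wild type and 0.411 to 0.586 in null, and the *Fezf2-EnR* libraries lie at 0.497 and 0.204.

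Other genes of the MGE programme came from a list of 20 patterning and transcription factor genes, of which 19 were tested. In null against wild type 1 was higher (*Ptch1*, the Sonic hedgehog receptor and target, log2 fold change 0.49, limma adjusted p = 0.028) and 0 were lower, with a median of 0.18 over the list. At an unadjusted limma p under 0.05, 6 of the 19 were higher and 0 lower, where 6.61% of all genes were higher. *Ptch1* was no longer called without bc201, bc202, bc204 or bc207. *Dlx2*, named here after its values were seen, was at 0.41 (adjusted p = 0.063) and passed with only the 2 groups compared (0.046), and DESeq2 called 4 genes of the list. *Dlx6*, a homeobox gene of GABAergic neurons, had the largest positive value (0.61, adjusted p = 0.46), *Shh* itself the largest negative one (-0.20, adjusted p = 0.80), and the most abundant member, *Mef2c*, was at -0.07 (adjusted p = 0.83). With all 9 libraries limma called none of the 19 genes in either *Fezf2-EnR* comparison, whereas DESeq2 called 4 against wild type.

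Among 17 genes of GABA synthesis, migration and later interneuron features, 15 had a log2 fold change above 0 in null against wild type, with a median of 0.36, and 0 passed the limma test, although 10 were higher at an unadjusted p under 0.05, as were 6.61% of all genes. The count was 2 with only the 2 groups compared, or without bc208 or bc209, 3 within litter m1 alone and 3 with DESeq2. Among the genes gained was *Gad1*, and in the last 2 fits also *Gad2*, the GABA-synthesising enzymes, named after their values were seen. With all 9 libraries in limma they were at 0.71 and 0.47 (adjusted p = 0.15 and 0.13). In *Fezf2-EnR* against null, *Gad1* was at -0.63 and *Gad2* at 0.08 (limma adjusted p = 0.19 and 0.78). Against wild type they were at 0.07 and 0.55 (limma adjusted p = 0.89 and 0.12). There DESeq2, which called 5.58% of the genes with an adjusted p, called *Gad2* (adjusted p = 0.013). Without bc208, which leaves the *Fezf2-EnR* group with 1 library assumed to vary like the others, *Gad1* was at -1.06 against null. *Crhbp*, a binding protein of corticotropin-releasing hormone found in somatostatin cells, had the largest value (1.42, adjusted p = 0.29), from means of 19.5 in wild type and 52.9 in null. The most abundant gene of the list, *Nos1*, which makes nitric oxide in a subset of *Sst* and *Npy* cells, was at -0.05 (adjusted p = 0.92). The summed level of the list was 13330 to 14097 in wild type, 15809 to 18331 in null and 12977 and 15666 in the *Fezf2-EnR* libraries.

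The partners of the members were compared next. At an unadjusted limma p under 0.05 in null against wild type, 0 of 7 ERBB4 partners were higher. Of 8 receptor and cortistatin genes 2 were higher, and 0 genes of either list were lower. Of 7 tested ligands and partner receptors of ERBB4, 0 were called in any of the 3 comparisons by limma, and DESeq2 called 1 in each *Fezf2-EnR* comparison. *Nrg3*, the most abundant ligand, was at 0.12 in null against wild type (adjusted p = 0.68), *Nrg1* at -0.21 (adjusted p = 0.52) and *Erbb2*, the co-receptor, at 0.19 (adjusted p = 0.72). Of 8 tested receptors of somatostatin and neuropeptide Y with cortistatin, 0 were called likewise by limma, and DESeq2 called 1, *Npy2r*, in null against wild type (1.17, adjusted p = 0.028). *Cort*, a peptide related to somatostatin, had the largest value (1.18, adjusted p = 0.32) from means of 10.3 and 26.0, whereas *Npy1r*, the most abundant receptor, was at 0.01 (adjusted p = 0.98) and *Sstr1* at -0.19 (adjusted p = 0.58).

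Markers of other cells were read beside the members. At an unadjusted limma p under 0.05 in null against wild type, 6.61% of all genes were higher. Higher at that level were 4 of 10 genes of the caudal ganglionic eminence and 3 of 5 of oligodendrocyte precursors. The count was 1 of 5 for microglia and macrophages, 2 of 9 for cortical glutamatergic genes and 0 for striatal and cholinergic genes. Lower were 2 glutamatergic genes and 1 striatal gene. Of 10 genes of interneurons from the caudal ganglionic eminence, 1 was called, *Cck*, a peptide that glutamatergic neurons also express (log2 fold change 1.26 in null against wild type, adjusted p = 0.0013, and -1.65 in *Fezf2-EnR* against null, adjusted p = 0.00078). In null against wild type 7 of the 10 were above 0, with a median of 0.27. *Sp8* and *Htr3a*, a transcription factor and a serotonin receptor named after their values were seen, were at 0.77 (adjusted p = 0.051) and 0.65 (adjusted p = 0.14). In *Fezf2-EnR* they were at -0.06 and 0.09 against null (limma adjusted p = 0.89 and 0.85). Against wild type they were at 0.71 and 0.74 (limma adjusted p = 0.13 for each). There DESeq2, which called 5.58% of the genes with an adjusted p, called both (adjusted p = 0.021 and 0.029). In null against wild type the number called was 2 without a filter, with either other scaling, with litter as a block and with only the 2 groups compared, the second gene being *Sp8*. It was 3 with DESeq2 (*Htr3a* being the third) and within litter m1 alone, where *Reln* was lower by a log2 of -0.32 (adjusted p = 0.031). *Reln*, the most abundant, was at -0.03 and *Vip* at -0.27 (adjusted p = 0.96 and 0.80). Of 5 oligodendrocyte precursor genes, a lineage that also expresses *Sox6*, 0 were called and 5 were above 0, from *Olig1* (0.08) to *Sox10* (0.34, adjusted p = 0.11), with *Pdgfra*, the most abundant, at 0.25 (adjusted p = 0.33). Their summed level was 4849 to 5148 in wild type, 5512 to 5780 in null and 5391 and 5411 in the *Fezf2-EnR* libraries. Like *Sox6*, it was higher in every mutant library than in wild type. Among the mutant libraries the order differed. The sum was highest in bc204 (5780, with *Sox6* at 1540), whereas bc209 had a sum of 5411 with *Sox6* at 1770. The part of oligodendrocyte precursors in the *Sox6* values was not tested.

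Of 9 cortical glutamatergic genes, *Slc17a6*, a vesicular glutamate transporter, was higher (0.59, adjusted p = 0.037) and *Emx1*, a dorsal homeobox gene, lower (-0.44, adjusted p = 0.030) in null against wild type. Both calls were lost without any 1 of the wild type or null libraries. Of 5 genes of microglia and macrophages, which express *Maf*, 0 were called. *Csf1r*, the most abundant, was at 0.13 (adjusted p = 0.71), *Mrc1* at 0.23 and *Aif1* at -1.38 (adjusted p = 0.81 and 0.56), and their sum of 702 to 848 in null overlapped the 706 to 811 of wild type. Of the striatal genes, 0 of 10 were called, with *Ppp1r1b* at -1.10 (adjusted p = 0.18) and *Drd2* at 0.92 (adjusted p = 0.69), a list median of 0.60, and of the cholinergic genes 2 of 7 could be tested, *Isl1* at 0.41 and *Slc5a7* at 0.66 (adjusted p = 0.93 and 0.60). Without bc204 the striatal median was 0.043, *Ppp1r1b* was lower at -1.41 (adjusted p = 0.0076, also called within litter m1 alone), and *Drd2*, *Isl1* and *Slc5a7* were at 0.31, -0.66 and 0.41 (adjusted p = 0.91, 0.88 and 0.81).

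**Figure D5:**
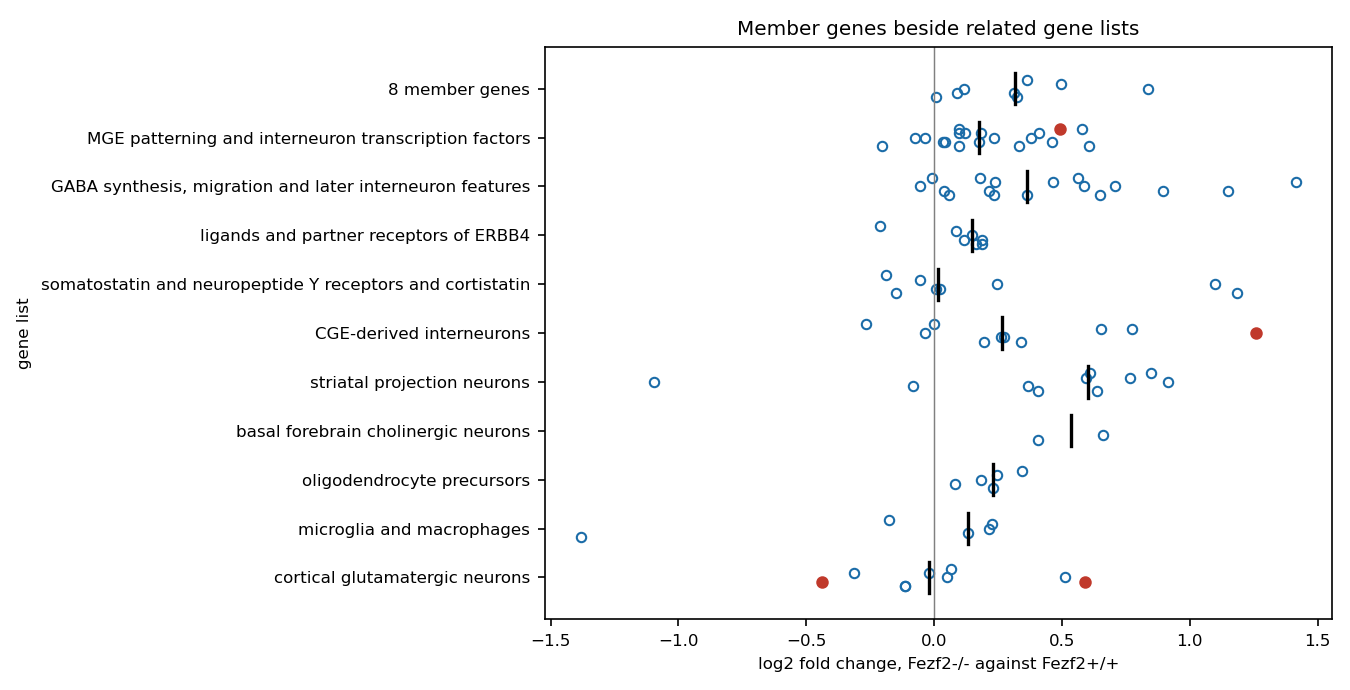
Log2 fold change in *Fezf2*-/- against *Fezf2*+/+ (x axis) of the 8 members and of each tested gene of the other lists (y axis, 1 point per gene, black bar at the median, red for limma adjusted p under 0.05). The members have a median of 0.32, and the only red points are *Ptch1*, *Cck*, *Slc17a6* and *Emx1*.

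The genes most like each member over the 9 libraries were sought by Pearson correlation of log2(value + 1) among 12956 genes with a mean of at least 50. The 9 libraries share genotypes and litters, so the coefficients describe this set only. *Lhx6* was followed most closely by *Cyb561a3* (r = 0.97), *RP24-413G2.4* (0.91), *Irf2bpl* (0.91) and *Atp6ap2* (0.90), none of which is on the interneuron lists. *Sst* was closest to *Tmem130* and *Cacng3* (0.99 each) and *Npy* to *Zfp239* (0.98) and *Peli2* (0.95). *Sox6* was closest to *Unc79* (0.99) and *Ikzf2* (0.98), *Erbb4* to *Akap11* (0.97) and *Cspg4* (0.95), and *Maf* to *Abca8a* (0.97) and *Prkdc* (0.96). *Satb1* went with *Ephb2* and *Nln* (0.94 each) and *Nkx2-1* with *Hars2* (0.91) and *Tbc1d31* (0.90).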

How the data were processed

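Bulk RNA from P0 cortices was sequenced as paired-end TruSeq libraries. The authors deposited 1 table in which each value is a signal in units of read counts divided by a DESeq size factor of the library, printed to 2 decimals. The submitters' processing notes name mm10, Bowtie, STAR and DESeq, and the counting tool, annotation and use of strand are not given in the sources used here.

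As the deposited signal is normalised, limma 3.58.1 in R 4.3.3 (lmFit, then eBayes with a trend) was run on log2(value + 1) over 16197 genes with a mean of at least 10, in 1 fit of all 9 libraries without covariate, and Benjamini-Hochberg adjusted over them. Fold changes on this scale understate those of low genes. Single genes were also tested by exact two-sided permutation of the difference of mean log2 values. Reads were recovered as whole multiples of the value of 1 read: with a tolerance of 0.05, 100% of values of 20 to 200 reads were whole in each library. edgeR 4.0.16 and DESeq2 1.42.0 on these reads were alternatives, beside other pseudocounts, filters, scalings, litter as a block, litter m1 alone and each library left out. Ratios to *Lhx6* and differences within litters were added after the data were examined. The fits were tested on simulated data. Annotation came from GENCODE M21 (24595 of 24624 identifiers matched).

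The members and gene lists were chosen with earlier results of these data known. From each list the called genes, the most abundant, and those with the largest positive and negative value in null against wild type are named, and for likeness the 5 closest genes to *Lhx6* and the 2 closest to each other member. A few genes that this rule names are not reported here. *Pvalb*, *Ereg* and protein sequences were not analysed here. Each library is 1 mouse, so the p-values set group differences against the spread between mice. The main fit has no litter term and the genotypes are unevenly divided over the litters, so differences between litters are not separated from either. Tables were made with Python 3.11.15 and pandas 2.3.3.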

Additional observations from a re-analysis of the deposited data

Results flagged for a closer look

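*Satb1* in *Fezf2*-/- replicate bc204, at a normalised read count of 4684, lay far below the other null libraries (6070 to 6119), further than Dixon's 95% limit for 4 samples allows. Such a test marks about 1 group in 20 by chance (8 were examined), and no other member was marked. In bc204 the striatal and cholinergic markers were also at their highest, and the part of that in the *Satb1* value was not tested.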

How the results depend on the processing

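The number of members called in *Fezf2*-/- against *Fezf2*+/+ was 0 with limma, 1 with only the 2 groups, with litter as a block and with DESeq2, 2 within litter m1 alone, 4 without adjustment, and 0 to 1 when single libraries were left out (1 without bc208 or bc209). In *Fezf2-EnR* against wild type it was 0, but 1 with DESeq2 and 2 without adjustment, and in *Fezf2-EnR* against null 0, but 3 without adjustment and 0 to 1 with single libraries left out (1 without bc208). Of the 459 refitted log2 fold changes of single members, 429 kept direction and side of the threshold, 9 passed it in the same direction and 21 changed sign, none of them called. The cause was not tested. Other filters, only the 2 groups compared, and leaving out a library of the third genotype return the same log2 fold change. In those refits only the p-value could change, so the 429 include values whose direction was fixed in advance. With litter as a block the sign turned for *Npy* in *Fezf2-EnR* against wild type (0.15) and for *Sox6* (-0.016) and *Maf* (-0.044) against null, and for *Sst* in *Fezf2-EnR* against wild type with edgeR (0.035) and DESeq2 (0.031). With single libraries left out, *Satb1* in null against wild type spanned -0.052 to 0.10. In *Fezf2-EnR* against wild type *Sst* spanned -0.68 to 0.50, *Npy* -0.12 to 0.055 and *Satb1* -0.29 to 0.086. In *Fezf2-EnR* against null *Nkx2-1* spanned -0.48 to 0.15, *Sox6* -0.036 to 0.17, *Satb1* -0.29 to 0.080, *Maf* -0.015 to 0.10 and *Erbb4* -0.18 to 0.11. The genotypes share no replicate numbers, so litter was the only block fitted. With 2 *Fezf2-EnR* libraries the permutation test cannot pass 0.05, and *Nkx2-1*, at 13 to 44 reads, is limited by depth.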
